A study of Mus musculus with 2 samples.

Results

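GATA4 occupied sites (OS) that hold 3 or more copies of the GATA motif made up 430 of the 4409 sites common to both peak callers in mouse liver. A site counted as such when the mm9 reference sequence between its start and end held 3 or more exact matches to WGATAR, the letters GATA with A or T before them and A or G after them, on either strand. The rule used the sequence between the peak bounds, which were called from the ChIP reads, and no other measured value. It was met by 9.75% of all common sites (95% Wilson interval 8.91 to 10.7%). GATA4 ChIP-seq is the sequencing of DNA fragments pulled down with an antibody to the protein (here C-20). It was carried out on whole liver of mice 2 to 3 months of age by the labels, and slightly older per the methods. The methods place wild-type mice on a mixed C57BL/6 x Sv129 background, but do not name the genotype or strain of the ChIP-seq mice. Input DNA was the control and entered through the peak calls. Per the methods, 2 biological replicates, each of pooled livers, were called into 1 list, so the sites come from 1 ChIP sample, whole liver mixes hepatocytes with endothelial and other cells, and no spread between animals could be given. Intervals below cover counting error only, over sites, or over matches or adjacent pairs where these are counted. Several matches or pairs can come from 1 site, so intervals over them are too narrow. The peaks carry a display score of 1000 throughout, and the peak lists give no read count for any site.

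GATA4 belongs to a family of zinc finger factors that read the GATA core and take part in liver and endothelial development. A GATA factor carries a pair of zinc fingers, of which the one nearer the carboxyl end binds WGATAR and the other can contact FOG cofactors or a neighbouring GATA core. Groups of GATA motifs in 1 element are well known from erythroid genes, where paired and palindromic arrangements occur.

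The sequences of 12 such clusters follow, from the first to the last match with 5 bases on each side, read 5′ to 3′ on the plus strand of mm9, with every match in capitals. A match on the plus strand reads as WGATAR and one on the minus strand as its reverse complement, YTATCW, with Y for C or T. Site numbers are positions in the deposited list. The clusters shown were picked after their values were seen, from the sites with 5 or more matches, the first 100 of the list and the genes with several clusters. The first 5 hold 5 or more matches and show different arrangements, the sixth shows a short cluster, and the others lie at genes of liver or endothelial cells or of haem synthesis.
site 2392, upstream of Insig2, chr1:123246051-123246330: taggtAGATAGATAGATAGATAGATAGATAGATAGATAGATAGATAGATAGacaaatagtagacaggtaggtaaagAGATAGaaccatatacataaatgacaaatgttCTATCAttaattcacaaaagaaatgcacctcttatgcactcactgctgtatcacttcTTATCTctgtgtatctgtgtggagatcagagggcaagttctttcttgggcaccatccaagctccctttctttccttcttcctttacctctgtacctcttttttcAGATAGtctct
site 297, Lclat1 intron, chr17:73491838-73491971: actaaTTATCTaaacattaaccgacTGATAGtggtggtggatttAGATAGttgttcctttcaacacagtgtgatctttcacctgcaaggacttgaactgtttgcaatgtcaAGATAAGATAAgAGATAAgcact
site 4340, nearest to Eif2s2, chr2:154681193-154681425: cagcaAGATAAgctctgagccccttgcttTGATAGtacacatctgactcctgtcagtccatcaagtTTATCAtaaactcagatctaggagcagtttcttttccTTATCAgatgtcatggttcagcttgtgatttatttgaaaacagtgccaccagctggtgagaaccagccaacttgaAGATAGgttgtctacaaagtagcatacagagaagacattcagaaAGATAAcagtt
site 108, Fndc7 intron, chr3:108689275-108689426: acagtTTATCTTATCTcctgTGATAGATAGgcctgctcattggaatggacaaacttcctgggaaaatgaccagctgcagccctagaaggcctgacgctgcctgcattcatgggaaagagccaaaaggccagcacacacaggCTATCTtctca
site 269, Aldh1a1 intron, chr19:20705708-20705831: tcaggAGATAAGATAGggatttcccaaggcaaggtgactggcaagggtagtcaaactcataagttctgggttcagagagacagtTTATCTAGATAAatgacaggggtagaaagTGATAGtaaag
site 2692, Eltd1 intron, chr3:151101434-151101470: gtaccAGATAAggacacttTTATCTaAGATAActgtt
site 62, Mrc1 intron, chr2:14157100-14157219: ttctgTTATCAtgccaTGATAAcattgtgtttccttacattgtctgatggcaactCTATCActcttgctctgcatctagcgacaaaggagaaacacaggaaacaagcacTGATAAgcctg
site 87, Abcg5 and Abcg8 promoter, chr17:85082329-85082408: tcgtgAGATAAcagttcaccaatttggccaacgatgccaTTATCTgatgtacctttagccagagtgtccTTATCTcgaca
site 42, Ppara intron, chr15:85605008-85605169: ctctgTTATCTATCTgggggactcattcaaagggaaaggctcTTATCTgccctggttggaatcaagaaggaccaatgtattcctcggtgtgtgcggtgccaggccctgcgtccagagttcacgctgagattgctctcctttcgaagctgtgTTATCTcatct
site 147, Cpox promoter, chr16:58670225-58670335: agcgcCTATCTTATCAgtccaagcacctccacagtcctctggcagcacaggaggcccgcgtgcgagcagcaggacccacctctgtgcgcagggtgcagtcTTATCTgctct
site 2179, further upstream of Cpox, chr16:58669481-58669547: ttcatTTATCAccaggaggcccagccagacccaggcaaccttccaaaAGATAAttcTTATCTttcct
site 534, Zfpm1 intron, chr8:124820575-124820718: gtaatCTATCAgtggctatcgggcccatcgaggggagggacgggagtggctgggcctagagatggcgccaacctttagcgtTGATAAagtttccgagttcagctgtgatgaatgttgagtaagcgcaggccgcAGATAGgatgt

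The arrays differ in kind. Site 2392, which lies 17030 bp upstream of the nearest protein-coding transcription start site (TSS), that of Insig2, a brake on sterol synthesis, held 15 matches, the highest count of all sites. Of these, 11 formed a head-to-tail run with starts 4 bp apart, a simple GATA repeat, and the other 4 lay scattered over the site. In contrast, site 297 in intron 1 of Lclat1, a lysophospholipid acyltransferase, held 6 matches, of which 5 read on the plus strand, and the last 3 had starts 5 and 7 bp apart. Site 108 in intron 2 of Fndc7 combined 2 overlapping minus-strand matches with 2 overlapping plus-strand matches. Site 269 in intron 9 of Aldh1a1, a retinaldehyde dehydrogenase, held a pair facing away from each other with starts 6 bp apart, that is, with no base between them.

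Counts of matches fell off steeply. Among the 430 sites, 341 held 3 matches, 71 held 4, 14 held 5, 3 held 6 and 1 held 15. Just outside the rule stood 1099 sites with 2 matches, beside 2126 with 1 and 754 with none. Control windows, as wide as the site and 5000 bp to its right, met the rule in 75 of 4409 cases, or 1.70% (interval of the difference, Newcombe's score method, 7.11 to 9.02 percentage points). In 419 cases the site alone held 3 or more matches, in 64 the window alone, and in 11 both. The interval treats sites and windows as independent, although each window is paired with its site. Windows with 11 to 13 matches, 6 in all, were seen where sites had a single case above 6. Matches that overlap were counted separately under the rule, and 401 sites kept 3 or more matches that did not overlap.

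**Figure D1:**
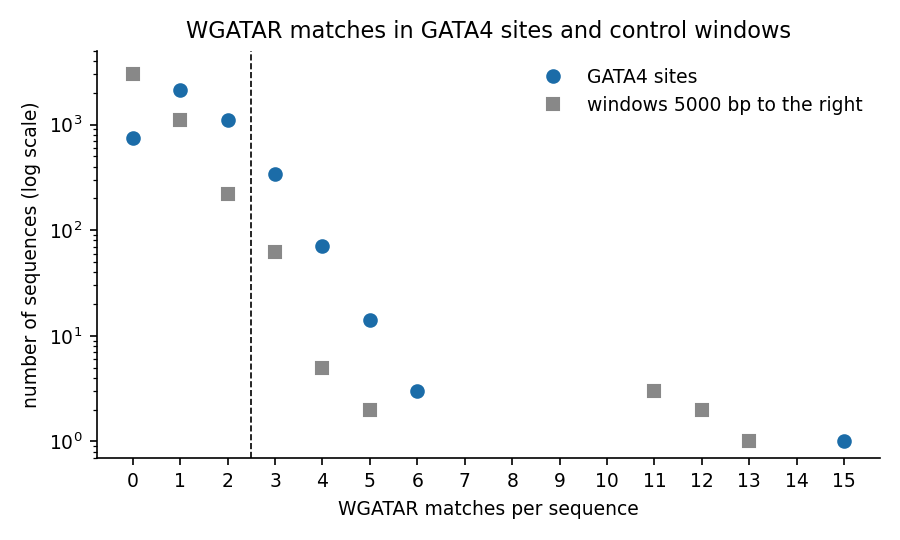
Number of sequences (y axis, log scale) by number of WGATAR matches (x axis) for the 4409 GATA4 sites (circles) and their control windows of the same width (squares); the dashed line marks the rule of 3 matches. Sites exceed windows from 1 to 6 matches, while 6 windows and 1 site hold 11 or more.

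Part of the count goes with width and base composition. The sites with 3 or more matches had a median width of 261.5 bp (81 to 631 bp), against a median of 183 bp for all other sites. They held 1.29 matches per 100 bp and the other sites 0.533, a density that the rule itself sets apart. Their median G+C content was 46.5%, against 49.7% in the other sites, and 303 of the 430, or 70.5%, lay at or below the median of all sites. WGATAR is itself rich in A and T, so the rule lowers G+C content in part, and how far was not tested. When 320 bp around each midpoint was scanned in place of the site itself, 705 sites, or 15.99%, met the rule, against 3.63% of windows scanned in the same way.

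The 18 sites with 5 or more matches had no layout in common. Site 129, with 6 matches on alternating strands, lay 41026 bp downstream of the TSS of Hpgd, which degrades prostaglandins. Site 4340, also with 6, lay in intron 1 of the agouti gene (a), 37234 bp downstream of the TSS of Eif2s2, a translation initiation factor subunit. Sites with 5 matches lay in introns of Fndc7, A930011G23Rik, Chst15, Aldh1a1, Bmp2k, Mdh1, the cytosolic malate dehydrogenase, and Scrt2. The site in Chst15, its nearest gene by TSS, also lay in an intron of a longer Fgfr2 transcript. The others with 5 lay outside protein-coding genes, with Arhgap26, Rwdd3, Atxn7l3b, 4833424O15Rik, Defb30, Bambi and Cyp26a1 as the nearest genes. Bambi, a decoy receptor for BMP signals, was 158665 bp away from its site, whereas Cyp26a1, which breaks down retinoic acid, had its site 4692 bp downstream of its TSS.

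**Figure D2:**
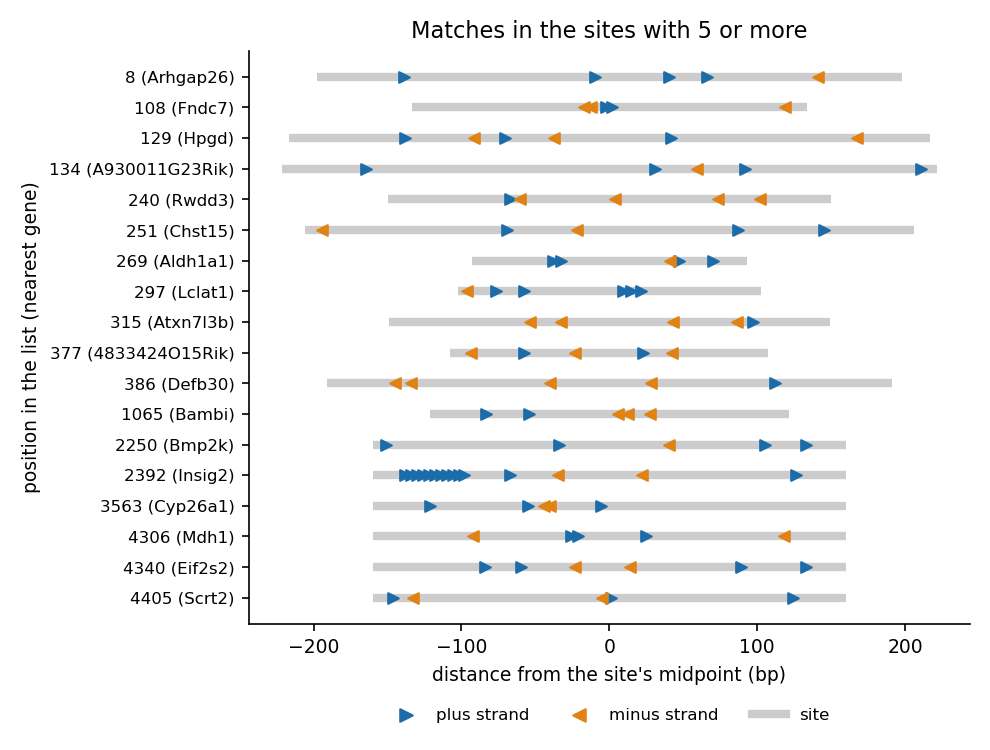
WGATAR matches in the 18 sites with 5 or more, by distance from the site's midpoint in bp (x axis), with sites ordered by position in the list and named by the nearest protein-coding gene (y axis). Triangles point right for the plus strand and left for the minus strand, and grey bars show the extent of each site; the run of 11 matches stands out in site 2392 and strands are mixed in all 18.

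Orientation was even. The 1410 matches of the 430 sites fell on the plus strand in 705 cases, an even division (interval 47.4 to 52.6%). They formed 980 adjacent pairs, of which 499, or 50.9%, had both matches on 1 strand (interval 47.8 to 54.0%, which includes 50%). Sites with exactly 2 matches had 50.7% such pairs, and the difference of 0.236 percentage points was within counting error (interval -4.06 to 4.53). Pairs facing each other numbered 226 (23.1%) and pairs facing away from each other 255 (26.02%). In the 341 sites with exactly 3 matches, all lay on 1 strand in 70 cases, or 20.5% (interval 16.6 to 25.1%). Each of the 8 strand orders was seen in 30 to 56 sites. The orders with all 3 on the plus or all 3 on the minus strand, in 38 and 32 sites, were toward the low end.

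At short range the share was higher. Of the 238 pairs with starts 20 bp apart or less, 56.7% lay on 1 strand (interval 50.4 to 62.9%). At 4 bp, where the letters allow the same strand alone, there were 33 pairs in 21 sites, 10 of them in the repeat of site 2392. Among pairs with starts 5 to 20 bp apart, 102 of 205, or 49.8%, lay on 1 strand (interval 43.0 to 56.5%). At 5 bp there were 17 pairs on the same strand and 8 facing away. Without overlapping matches the share over all distances was 49.5%, again within counting error of 50%.

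Adjacent matches lay at widely varying distances. The median distance between adjacent starts was 47 bp, against 56 bp in sites with 2 matches, and 838 of the 980 pairs, or 85.5%, lay within 100 bp. A cluster, from the first to the last base of its matches, spanned a median of 123 bp (14 to 381 bp). All matches fitted into 50 bp in 37 sites, or 8.60%, and into 100 bp in 149 sites, or 34.7%. Pairs with starts 20 bp apart or less made up 24.3% of pairs, 238 of 980. In windows that met the same rule the share was 46.9%, 99 of 211 pairs, a difference of -22.6 percentage points (interval -29.8 to -15.5). Of the 211 window pairs, 63 were 4 bp apart on 1 strand, as in simple GATA repeats, against 33 of the 980. Without sites and windows holding such pairs the difference was -1.37 points (interval -9.52 to 5.46). Against sites with 2 matches, close pairs were more frequent by 6.18 points (interval 2.66 to 9.70), a comparison in which 3 matches have less room in a site than 2.

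Several tight clusters without a repeat, picked here after their values were seen, lay at genes with known roles. Site 2244 in intron 1 of Klb, the coreceptor for FGF21 and FGF15, held 3 plus-strand matches within 24 bp. Site 212, 2163 bp upstream of Slc39a14, a zinc and iron importer, also held its 3 matches within 24 bp, on alternating strands. Site 2238, 26533 bp upstream of Abca1, the cholesterol efflux pump, fitted its 3 within 25 bp, and site 2692 in intron 1 of Eltd1, an endothelial adhesion receptor, within 27 bp. The shortest cluster of all, 14 bp at site 1440 in intron 1 of Smurf1, an enzyme that marks BMP signal proteins for degradation, was by comparison a run of GATA repeats.

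**Figure D3:**
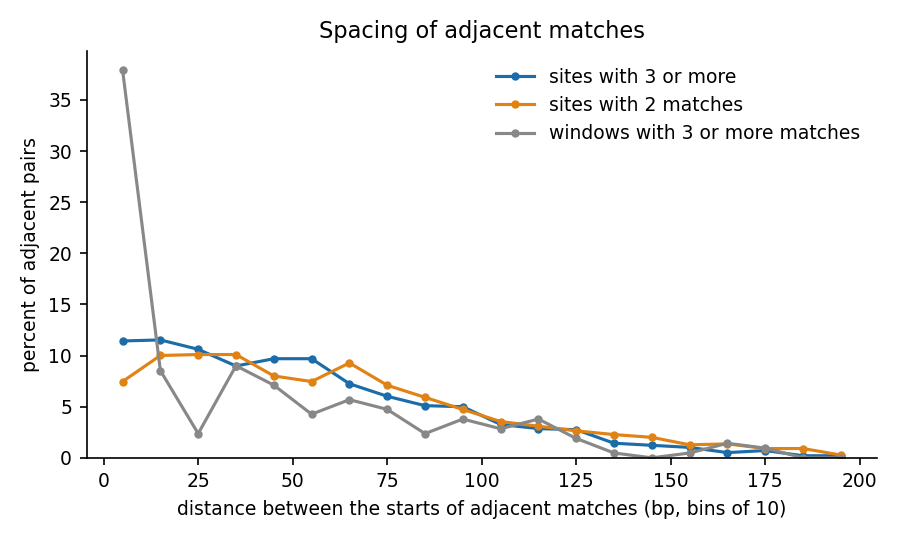
Percent of adjacent match pairs (y axis) by the distance between their starts in bins of 10 bp (x axis) in sites with 3 or more matches, sites with 2 matches and windows with 3 or more matches. Both kinds of site stay below 12% in every bin, whereas the windows peak in the first bin, which holds the pairs 4 bp apart.

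A match centre stood within 20 bp of the midpoint in 271 of the 430 sites, or 63.0%. The share was 59.4% in sites with 2 matches and 52.2% in sites with 1, but more matches give more chances of one near the midpoint, so these shares are no comparison. Of all matches, 55.4% had their centre within 50 bp of the midpoint, against 72.2% in sites with 2 matches and 88.2% in sites with 1. Narrow sites cannot hold matches far from their midpoint, which limits the tails in each group.

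**Figure D4:**
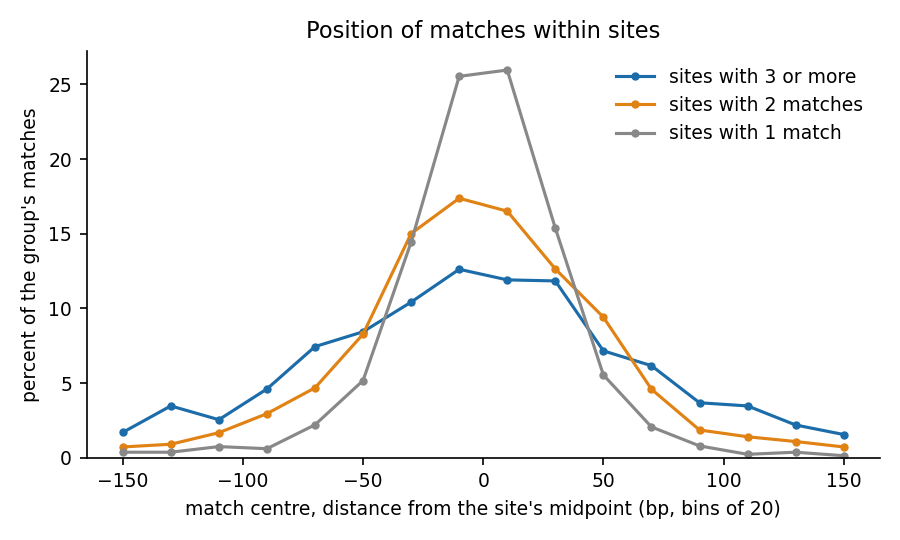
Percent of each group's matches (y axis) by distance of the match centre from the site's midpoint in bins of 20 bp (x axis). All 3 groups peak around the midpoint, at 25.96% per bin in sites with 1 match and at 12.6% in sites with 3 or more.

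The forms of the motif differed from those in sites with a single match. AGATAA made up 40.7% of the 1410 matches, against 49.8% of the 2126 matches in sites with 1, a difference of -9.10 percentage points (interval -12.4 to -5.76). TGATAA held 25.2%, AGATAG 19.9% and TGATAG 14.3%, against 27.7%, 14.2% and 8.33% in sites with 1 match. Sites with 2 matches had 42.2% AGATAA, 27.0% TGATAA, 19.2% AGATAG and 11.6% TGATAG, so a lower AGATAA share was already present there. Windows had 29.6% AGATAA and 26.1% AGATAG, so the clusters stood between single sites and nearby sequence. Within clusters, the match nearest the midpoint was AGATAA in 44.7% of sites and the other matches in 39.0% (difference 5.67 points, interval 0.104 to 11.3). The lower end, 0.104, is close to no difference. The interval treats the nearest and the other matches as independent, although both come from the same sites. The AGATAG repeat upstream of Insig2 adds to the other matches alone. Whether the difference holds without that site was not tested. At least 1 AGATAA was held by 345 of the 430 sites, or 80.2%, and AGATAA or TGATAA by 416, or 96.7%. A site with several matches has several chances of holding either form, and no comparison share was computed. These shares therefore show no preference for a form.

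Sites with 3 or more matches were concentrated at the top of the list. The list was divided into 4 parts of nearly equal length. Of the 430, 184 fell in the first part (positions 1 to 1103), or 42.8%, against 23.1% of the other sites, a difference of 19.7 percentage points (interval 14.9 to 24.6). In turn, 16.7% of the first part met the rule, and 7.16, 7.62 and 7.55% of the later ones. Site width changes along the list, with a median of 222 bp in the first part, 161 and 151 bp in the middle ones and 320 bp in the last. With a fixed 320 bp scanned around each midpoint, the share was 23.1, 15.96, 14.1 and 10.8% from the first to the last part, and the first exceeded the last by 12.3 points (interval 9.20 to 15.4). Sites of exactly 320 bp could not answer the question, since the first part held 8 of them. Ordering the sites by the number of their MACS2 peak gave a difference of 18.1 points. Per the methods, SPP peaks had been ranked by signal and MACS2 peaks by p-value for the IDR step, but whether the deposited numbering keeps that order is not stated, so position is not read as a measured strength.

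**Figure D5:**
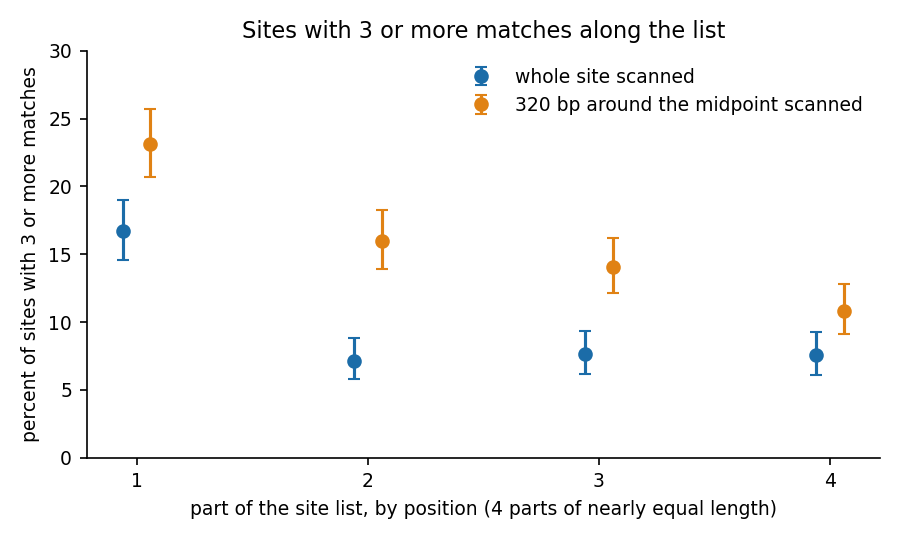
Percent of sites with 3 or more matches (y axis) in each of the 4 parts of the list (x axis), with the whole site scanned and with 320 bp around the midpoint scanned; bars are 95% Wilson intervals. The fixed scan falls from 23.1 to 10.8%, and the whole-site scan is high in the first part alone.

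The first 100 positions held 28 of the sites. Site 2 lay in intron 6 of Map3k3, a kinase of vascular development, 24525 bp from the TSS of Limd2, and carried 3 matches, all on the plus strand. Site 10 lay 629 bp upstream of Pzp, a plasma protease inhibitor of the alpha-2-macroglobulin type, and site 14 lay 10407 bp upstream of Ahsg, the plasma protein fetuin-A. Site 42 lay in intron 2 of Ppara, the fatty acid receptor, although the nearest TSS was that of 2210021J22Rik. Further sites in introns of endothelial or vascular genes included sites 62 and 81. Site 62 (Mrc1, the mannose receptor of sinusoidal endothelium) held 4 matches and site 81 (Flt1, a VEGF receptor) held 3. Site 56 lay in intron 3 of Sept9, site 79 in intron 3 of Sh3bp5, site 65 in intron 2 of Dopey2 and site 84 in intron 1 of Ddah1, which degrades an inhibitor of nitric oxide synthesis. Site 27 lay in intron 1 of Bach2, a transcriptional repressor.

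Relative to genes, the sites were less often at promoters than the other sites. The midpoint was within 1000 bp of a protein-coding TSS in 34 of 430 sites, or 7.91%, against 617 of the 3979 others, or 15.5% (difference -7.60 percentage points, interval -10.1 to -4.46). Base composition, which the rule itself shifts in part, moved with this result. Among sites with G+C at or below the median of all sites the shares were 7.59% and 5.65%, a difference of 1.94 points in the other direction and within counting error (interval -0.788 to 5.60). Of the 34 promoter sites, 22 lay upstream of the TSS and 12 downstream, a split that was not counted for the other sites. The first intron held 82 sites, or 19.1%, against 17.8% of the others (difference 1.28 points, interval -2.37 to 5.42). Later introns held 127, or 29.5%, against 23.2% (difference 6.29 points, interval 1.96 to 10.9), and among sites outside promoters the shares were 32.1% and 27.5%, with an interval of -0.108 to 9.53. More than 50000 bp from any protein-coding TSS lay 117 sites, or 27.2%, against 25.01% (difference 2.20 points, interval -2.02 to 6.79). A further common site stood within 10000 bp of 92 sites, or 21.4%, against 19.6% of the others (difference 1.77 points, interval -2.06 to 6.06).

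The 34 promoter sites included several at genes with a known role in liver. Site 87 was centred 17 bp upstream of the Abcg5 TSS and within intron 1 of the longest Abcg8 transcript there. Its 3 matches lay within 70 bp. Abcg5 and Abcg8 are read in opposite directions and their products together export sterols. The paper describes GATA4 occupancy in the region between these genes as intergenic. Site 147 was centred 1 bp upstream of the TSS of Cpox, an enzyme of haem synthesis, and site 2179 was centred 814 bp upstream of the same TSS. Site 379 lay 185 bp upstream of an Nr5a2 TSS, a nuclear receptor of bile acid synthesis, and site 3053 lay 239 bp upstream of Cyp3a13, a drug-metabolising cytochrome. Further ones, picked after their values were seen, were site 102, 150 bp upstream of Leap2, which encodes a liver peptide, site 184, 16 bp downstream of the TSS of Npc2, a lysosomal cholesterol carrier, in its 5' UTR, and site 151, 239 bp upstream of Cyp17a1, a steroid hydroxylase, with 4 matches.

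In all, 313 of the 430 sites lay within 50000 bp of a protein-coding TSS. They lay next to 302 of the 2560 genes with a common site in that reach, and 11 genes had 2 each. Zfpm1, which encodes the GATA cofactor FOG1, had site 534 in intron 1 and site 109 in intron 2, out of 5 common sites. Both lie as well within a long transcript, Gm20388, which also covers the sites upstream of Cbfa2t3. Cbfa2t3, a corepressor of blood cells, had sites 150 and 335, 37252 and 21427 bp upstream of its TSS. Eltd1 had site 1665 12869 bp upstream and site 2692 614 bp downstream of its TSS. Mob1b, a Hippo pathway scaffold, had both in intron 1. Cpox, Sema4b, Tmem135, Ttc7b, Pmp2, Defb30 and D130062J21Rik were the other genes with 2. At Eltd1, Mob1b, Tmem135, Pmp2 and Defb30 these were the only 2 common sites.

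Among hand-written gene lists, which were drawn up with earlier results of these data known, the share of sites with 3 or more matches is set beside the 9.49% found for all 3297 sites within 50000 bp of a TSS. Of 23 sites at lipid, cholesterol and bile acid genes, 4 met the rule, at Abca1, Abcg5, Cyp7b1 (oxysterol hydroxylase, intron 1) and Insig2, or 17.4% (interval 6.98 to 37.1%). Of 32 sites at liver transcription factors and nuclear receptors, 3 did, at Nr1i2 (the xenobiotic receptor PXR, intron 1), Nr5a2 and Rxra (intron 5), or 9.38%. Of 15 sites at coagulation, complement and plasma protein genes, 2 did, at Alb, 36087 bp upstream of the albumin TSS, and at Masp1 (a complement protease, intron 2). Single sites met it at Slc2a2, the hepatic glucose transporter (1 of 16 sites of the glucose list), at Hgd, of tyrosine breakdown (1 of 10 of the amino acid list), and at Cyp3a13 (1 of 15 of the drug list). The GATA and FOG list had 2 of 9, both at Zfpm1.

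Endothelial genes had 7 of 83 sites, or 8.43% (interval 4.15 to 16.4%), at Ehd3, Eng, Erg, Kdr, Mrc1, Oit3 and Stab2. Eng is a BMP coreceptor, Erg an ETS factor of endothelium, Kdr the main VEGF receptor and Stab2 a hyaluronan scavenger receptor of liver sinusoids. The Stab2 site (intron 3) and the Mrc1 site held 4 matches and the other 5 held 3. The BMP and TGF-beta list had 3 of 27 sites, at Acvr1 and Bmpr2, receptors for BMP ligands, and at Eng again. The lists for stellate cells, Kupffer and blood cells, and bile duct cells had 0 of 3, 0 of 1 and 0 of 1, too few to show a share. No interval of these lists left out 9.49%.

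Motifs of other factors were sought over whole sites on both strands. The FOXA letters TGTTTAC were in 30 of the 430 sites, or 6.98%, against 6.18% of the other sites (difference 0.794 percentage points, interval -1.40 to 3.69). AGGAAGT, read by ETS factors, was in 16.05% against 14.5% (interval of the difference -1.82 to 5.46), and CAAAGTCCA, read by HNF4, in 3 sites, or 0.698%, against 1.21% (interval -1.11 to 0.857). The AP-1 letters TGANTCA were in 10.2% against 7.26% (difference 2.97 points, interval 0.309 to 6.28), and within sites of 320 bp in 18.0% against 11.3% (difference 6.78, interval 0.783 to 14.4). With membership set by 320 bp around each midpoint, however, the AP-1 difference was -0.0417 (interval -1.99 to 2.29). The E-box CANNTG was in 66.7% against 59.6% (difference 7.11 points, interval 2.28 to 11.7). Within sites of 320 bp it was in 78.9% of both groups (difference 0.0741, interval -7.99 to 6.69), and the part of width in the E-box difference was not tested. Windows 5000 bp away held these letters in 2.88% (FOXA), 5.62% (ETS), 0.272% (HNF4), 5.90% (AP-1) and 65.0% (E-box) of cases. Each of these motifs can overlap a WGATAR match by its end bases.

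Of the 15 main comparisons, 14 were of differences, and 8 of these exceeded counting error at 95% without adjustment for their number. With the wider interval planned as an alternative, which was run for the site shares, AP-1 alone of these no longer did. Reads were kept only where they aligned uniquely, and 15 of the 430 sites shared a stretch of 25 bases with another of them.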

How the data were processed

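Peak lists of 1 GATA4 ChIP sample were used, and the input sample had no file of its own. Per the methods, the authors aligned reads to mm9 with Bowtie (0.12.7 per the labels), kept unique reads, ran MACS2 (2.0.10) and a modified SPP as peak callers, set thresholds by IDR and, with bedtools (2.16.1), kept the SPP coordinates that met a MACS2 peak. The deposited files hold positions and a score, which the authors set to 1000 for every peak. Read depth per site is unknown.

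Sequence came from NCBI build 37, the same build as mm9, and TSSs from GENCODE M1 protein-coding transcripts. WGATAR was matched exactly on both strands with overlaps allowed. Sites were assigned by midpoint. A first intron counted if any protein-coding transcript had one there, and intron numbers are those of the longest transcript. Shares have Wilson and differences Newcombe 95% intervals, with no test across replicates. Members and gene lists were chosen with earlier results of these data known. Named genes were those nearest to sites with 5 or more matches or among the first 100, with 2 or more sites within 50000 bp, or in a gene list, and others were picked after their values were seen, as said beside them. Python 3.11.15, numpy, pandas and pysam were used, and the functions were tested on simulated data.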

Additional observations from a re-analysis of the deposited data

Results flagged for a closer look

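Peaks outside the common list also held clusters above their background. Of 402 SPP peaks that met no MACS2 peak, 62 held 3 or more matches, or 15.4% (95% Wilson interval 12.2 to 19.3%), against 4.23% of control windows of the same width (difference 11.2 percentage points, interval 7.17 to 15.4). Of 1496 MACS2 peaks that met no SPP peak, 410 did, or 27.4%, against 17.0% of windows (difference 10.4 points, interval 7.46 to 13.4). The first had a median width of 320 bp and the second of 632 bp, so neither share can be set against that of the common list.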

How the results depend on the processing

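Of 97 alternatives, 70 kept direction and side of the interval, and 28 of the 97 were chosen after seeing the data. The share of sites with 3 or more matches stayed above that of windows in all 9 alternatives, by 1.72 percentage points (4 or more matches) to 16.8 points (MACS2 list). Differences that changed are given in percentage points. Only in sites of 320 bp, the first part of the list gave -0.805 (8 sites of that width in it), first introns 7.11 (then beyond counting error), later introns 4.78, distal sites -1.40, FOXA -1.49, ETS -1.98 and E-box 0.0741. Only in sites with G+C at or below the median, promoters gave 1.94, first introns -0.262, later introns 3.28, distal sites -3.09, neighbouring sites -0.853, FOXA -1.76, AP-1 1.19 and ETS -1.44. Outside promoters, first introns gave -0.352, later introns 4.56 and distal sites -0.0500. With membership by 320 bp around the midpoint, AP-1 gave -0.0417, ETS -1.74, HNF4 0.480 and E-box -0.0565. With the wider interval, AP-1 (2.97) no longer left out 0. Without overlapping matches, same-strand pairs were 49.5% and the close pair difference was -2.75. Without sites and windows with matches 4 bp apart on 1 strand, the close pair difference was -1.37. When only pairs with starts 20 bp apart or less were counted, those 4 bp apart included, same-strand pairs were 56.7%. The cause of these changes was not tested. Leaving out repeat-masked bases was not run, since the reference used here is not masked. No analysis paired by sample was possible because each group has 1 sample, and for the same reason no replicate could be left out. Positions without reads give no depth, so weak and strong sites could not be told apart.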
